A study of Homo sapiens with 12 samples.

Results

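The transcriptome of K562 cells treated with hemin in the absence of nilotinib was compared with that of mock-treated cells. K562 is a human leukemia cell line with the BCR-ABL1 fusion kinase that makes embryonic and fetal hemoglobin when given hemin, the iron(III) chloride form of heme. The libraries were 3 of hemin DMSO (50 µM hemin for 24 h with DMSO, the solvent of nilotinib) and 3 of mock DMSO (0 µM hemin, 0 h, with DMSO), named hemin and mock below. The other 6 of the 12 libraries of the series received 0.1 µM nilotinib, an inhibitor of BCR-ABL1, with hemin (3) or without it (3). All 12 are of the same cell line and there were 3 biological replicates per condition. The mock samples stand for 0 h and the hemin samples for 24 h, so the effect of hemin and that of 24 h in culture cannot be told apart. The submitters' notes describe nilotinib as a pretreatment given ahead of hemin. All genes that passed an expression filter were compared, 20821 of the 58735 in the count table.

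Heme is both a cofactor and a signal. In red cell precursors it lifts a block on globin translation and inactivates BACH1, a repressor that shares its DNA element with the activator NRF2, so that genes of heme breakdown, iron storage and glutathione synthesis become transcribed. Heme and other compounds that damage proteins also activate HSF1, which switches on the heat-shock genes. Erythroid genes themselves are driven by GATA1, TAL1, KLF1 and their partners, and heme synthesis starts with an aminolevulinate synthase that exists in a housekeeping form, ALAS1, and an erythroid form, ALAS2.

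The mock libraries held 40418880 to 50506990 counts and the hemin libraries 36153691 to 41860655. Levels are given as CPM, counts per 1000000 counts on the scale of edgeR's TMM factors, and differences as log2 fold changes of hemin over mock with their standard error (SE) and the Benjamini-Hochberg adjusted p of edgeR's quasi-likelihood test over all genes tested. A count of 0 allows up to 3 counts, or 0.0540 to 0.0957 CPM in these 6 libraries, and this limit covers counting error only. Replicates had correlations of log2 CPM across genes of 0.990 to 0.992 in mock and 0.980 to 0.985 in hemin. Reads of mitochondrial genes were 6.02% to 7.35% of counts in mock and 1.45% to 2.88% in hemin. In a bulk sample, fewer cells of a type and less RNA per cell cannot be told apart.

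Between mock and hemin, 11156 genes (53.6% of those tested) differed at an adjusted p under 0.05, of which 5360 (25.7%) were higher and 5796 (27.8%) lower. The median over all genes was -0.05, and for 13056 genes (62.7%) all hemin libraries lay on the same side of all mock libraries. The rises reached further than the falls. At least 2-fold, 3284 genes (15.8%) rose and 3190 (15.3%) fell, whereas at least 8-fold 852 rose and 175 fell, and at least 32-fold 260 rose and 18 fell. With upper-quartile factors the split was 6160 higher and 4918 lower of 11078, and that scaling moved the median of all genes to 0.07.

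**Figure D1:**
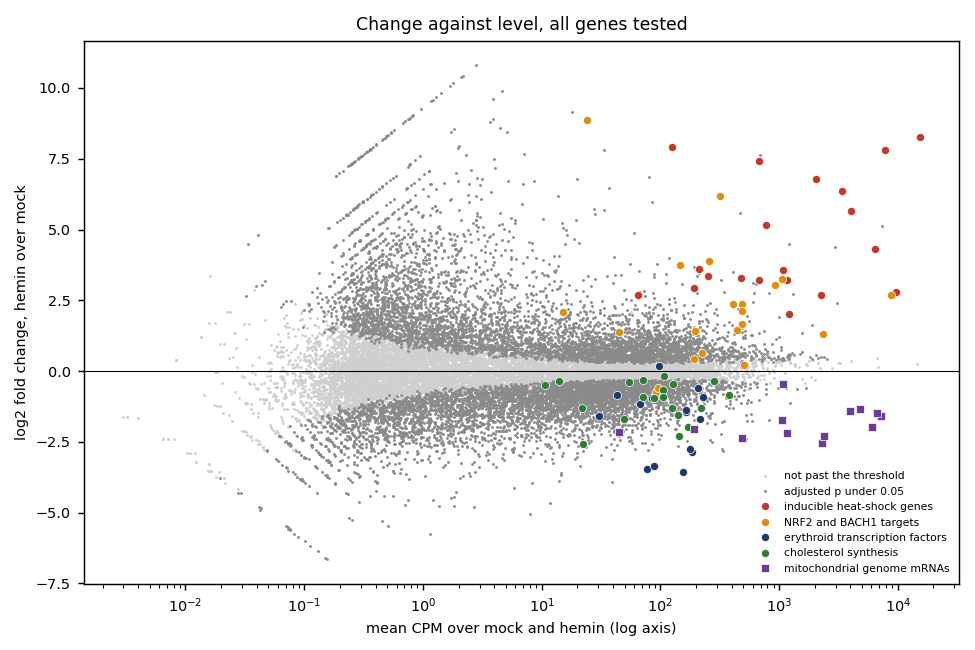
Log2 fold change of hemin over mock (y axis) against the mean CPM over the 6 libraries (x axis, log scale) for the 20821 genes tested, with 5 gene lists in color. The inducible heat-shock genes lie at the upper right, all 20 above 0, and the mitochondrial mRNAs and erythroid transcription factors lie mostly below 0.

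Among genes past the threshold with at least 100 counts on average and no overlap between conditions, the 15 largest rises included genes of heme breakdown and protein folding beside genes that are nearly silent in mock. HMOX1 (ENSG00000100292; chr22:35380361-35394214), the inducible heme oxygenase that opens the heme ring, was at 0.0540, 0.119 and 0.135 CPM in the mock libraries and at 31.7, 71.9 and 41.2 CPM in the hemin libraries, a 465-fold rise (log2 8.86, SE 0.58, adjusted p = 1.41e-08). The lowest hemin library lay far above the highest mock library. The heat-shock genes HSPA1A, HSPA1B and CRYAB, described with their family below, were also in this set, as was ZFAND2A (ENSG00000178381; chr7:1152071-1160759), a zinc finger protein of the proteasome response to arsenite, at 6.35, 6.75 and 7.94 CPM in mock and 1718, 1155 and 1282 CPM in hemin (log2 7.62, SE 0.56).

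ITGA1 (ENSG00000213949; chr5:52787896-52959210), the collagen-binding integrin α1, was at 0.0180, 0.0954 and 0.0769 CPM in mock and at 39.8, 34.2 and 33.6 CPM in hemin (log2 9.14, SE 0.54). PNLDC1, a poly(A)-specific exonuclease of germ cells, went from 0.288 ± 0.186 CPM to 66.9 ± 18.6 CPM (SD, n = 3 each) and GCM1, a transcription factor of the placental trophoblast, from 0.0656 ± 0.0938 CPM to 14.2 ± 3.71 CPM (SD, n = 3 each). None of these 3 overlapped between conditions. Without mock replicate 3 the log2 fold change of GCM1 was 9.99 in place of 7.67, and it was 6.97 without mock replicate 1. Without mock replicate 1 that of PNLDC1 was 8.42 in place of 7.82.

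For 6 of the 15, every mock library had 3 counts or fewer, and their change is given as the ratio of summed counts, scaled to library size, with its counting interval, which covers counting error only. BTLA, an inhibitory receptor of lymphocytes, had 1 count in the mock libraries together and 959 in the hemin libraries, a ratio of 1387 (95% counting interval 248 to 54836). For SLC17A8, a vesicular glutamate transporter, the counts were 1 and 798 and the ratio 1154 (95% counting interval 207 to 45639.5). COL2A1, the collagen of cartilage, had 4 and 1066 counts, a ratio of 385 (95% counting interval 150.1 to 1417). The others were ERICH3 (2 and 812 counts), the nicotinic receptor subunit CHRNA2 (2 and 758) and the pyruvate kinase pseudogene PKMP1 (3 and 945). RAB39B, a small GTPase of vesicle traffic, completed the set at 0.0396 ± 0.0324 CPM in mock and 7.86 ± 2.02 CPM in hemin (SD, n = 3 each). The fitted log2 values of these genes depend on a few mock counts. Without mock replicate 3 they moved to 11.46 for BTLA, 9.54 for COL2A1, 9.34 for PKMP1 and 8.33 for RAB39B, and without mock replicate 1 to 11.17 for SLC17A8 and 8.17 for CHRNA2.

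The 15 largest falls held the erythroid transcription factor KLF1, described below, and 7 genes known only by the name of their clone. SCARF1 (ENSG00000074660; chr17:1633858-1645747), a scavenger receptor for modified lipoproteins, was at 15.0, 16.0 and 15.5 CPM in mock and at 0.368, 0.319 and 0.659 CPM in hemin, 33.6-fold lower (log2 -5.07, SE 0.31, adjusted p = 8.4e-09). ASTN1, a neuronal adhesion protein, fell by 3.94 on the log2 scale, the actin-bundling protein ESPN fell by 3.68, UBXN10, a cofactor of the p97 ATPase in cilia, fell by 3.90, and WSCD2, a sulfotransferase, fell by 3.62. C11orf21 fell by 3.72. The antisense gene TNRC6C-AS1 went from 22.8 ± 4.37 CPM to 0.900 ± 0.215 CPM (SD, n = 3 each), though 27.1% of its 150-base words occur in other genes. Of the 7 with clone names, AC005307.1 went from 73.3 ± 7.54 CPM to 4.83 ± 0.672 CPM (SD, n = 3 each), and AP001528.3, AC104129.1, AC008555.2, AC117500.3, AL590004.3 and AC117500.5 fell by 3.57 to 4.82. Without hemin replicate 1 the value of AL590004.3 was -4.27, and without hemin replicate 2 that of AC117500.5 was -4.32.

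HSF1 binds an element of 3 units of GAA or its complement TTC, in alternating orientation and 2 bases apart. In the 300-base promoter windows of RefSeq (GRCh38.p14, 250 bases before to 50 after the start), it was found on either strand in 0.490% of 35116 windows. It stood in 8 of the 18 inducible heat-shock genes with a window (CHORDC1, DNAJA1, DNAJB6, HSP90AA1, HSP90AB1, HSPA6, HSPA8 and HSPD1). Windows of 30 bases from 6 of them are shown because every tested gene of this list rose, with the element in capitals.

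HSPA8, chr11:123062171-123062200, minus strand: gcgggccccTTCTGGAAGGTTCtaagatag

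HSPA6, chr1:161524457-161524486, plus strand: gcggaaaggTTCGCGAAAGTTCgcggcggc

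HSP90AA1, chr14:102087112-102087141, minus strand: ggagggttcTTCCGGAAGGTTCgggaggct

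HSP90AB1, chr6:44247822-44247851, plus strand: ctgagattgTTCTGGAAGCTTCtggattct

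DNAJB6, chr7:157336864-157336893, plus strand: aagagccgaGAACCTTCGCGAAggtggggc

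CHORDC1, chr11:90223084-90223113, minus strand: accggaaaaTTCGCGAAGGTTCctgaaacg

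The last base of the element lies 43 to 119 bases before the transcription start in these 6. Over the 12665 tested genes with a window, 65 held the element, of which 52.3% were higher with hemin, against 27.2% of the genes without it. Among the 65 are the 8 heat-shock genes named above, all of which rose, so the 52.3% partly counts that list again. A match of letters is a description and not a binding site.

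All 20 inducible heat-shock genes rose, against 25.7% of all genes, with a median log2 fold change of 3.58 against -0.05 over all genes. Their summed level went from 5441 to 110630 CPM on average. This list was chosen with earlier results of these data known. The 70-kDa chaperone HSPA1A (ENSG00000204389; chr6:31815464-31817946) was at 102, 96.9 and 101 CPM in mock and at 30098, 32563 and 28816 CPM in hemin, where it took the largest share of counts of any gene, 2.71% to 2.75%. The libraries of each condition lay close together and the conditions were 306-fold apart (log2 8.26, SE 0.81, adjusted p = 6.21e-07). Its neighbor HSPA1B shares 70.0% of its 150-base words with other genes, so reads can be split between them. Taken as a sum, the pair stood at 169, 169 and 171 CPM in mock and 46045, 48268 and 44304 CPM in hemin, 272-fold higher. HSPA6, the strictly inducible member of that family, was at 12.5, 6.53 and 4.42 CPM in mock and 759, 1902 and 1409.9 CPM in hemin (log2 7.43, SE 0.86).

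The small heat-shock proteins, which hold unfolded proteins in solution, rose as well. HSPB1 was at 154, 156 and 155 CPM in mock and 7394, 10287 and 5986 CPM in hemin, and CRYAB at 0.594, 1.10 and 1.44 and 203, 277 and 268 CPM. In both genes the lowest hemin library was far above the highest mock library. DNAJB1, the co-chaperone that hands clients to HSP70, rose 81.8-fold to 6687 ± 661 CPM (SD, n = 3). HSPH1, the nucleotide exchange factor of HSP70, rose 109-fold to 4069 ± 1068 CPM, and BAG3, which directs clients to autophagy, 35.9-fold to 1524 ± 258 CPM (SD, n = 3 each). Among the 90-kDa chaperones, the inducible HSP90AA1 was at 632, 604 and 640.1 CPM in mock and 13587, 12245 and 11092 CPM in hemin, and the constitutive HSP90AB1 at 2352, 2543 and 2542 and 16844, 20175 and 14017 CPM. The constitutive HSPA8 rose by 2.69 on the log2 scale. The smallest rise of the list was that of HSPD1, the mitochondrial chaperonin, at 2.0 (SE 0.16, adjusted p = 7.59e-08).

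**Figure D2:**
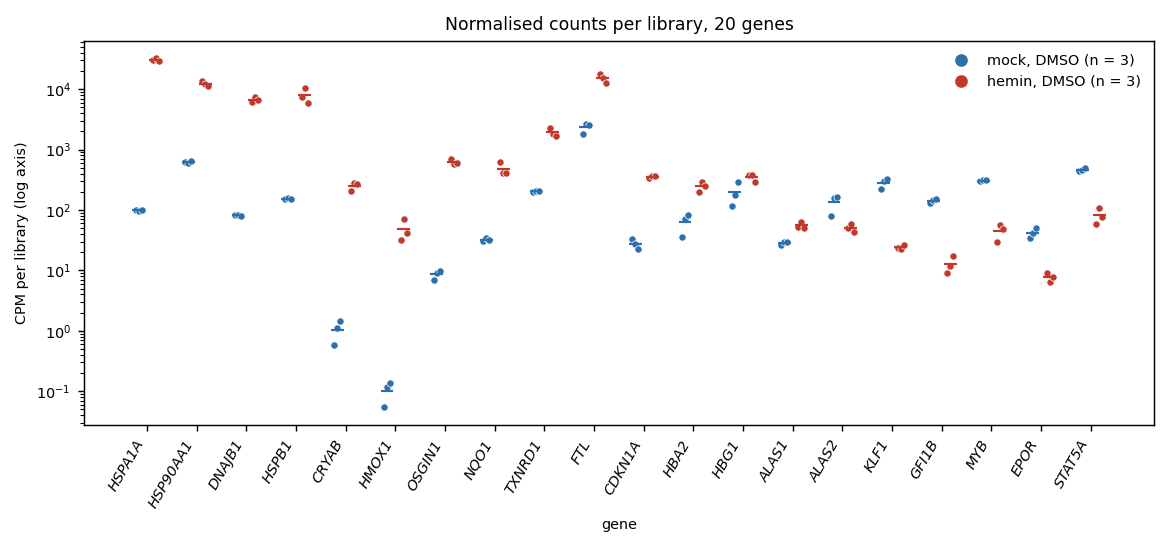
CPM in each of the 3 mock and 3 hemin libraries (log y axis) for 20 genes (x axis), with a bar at the mean of each condition. The heat-shock genes, HMOX1 and the genes of the NRF2 and BACH1 list shown lie higher in every hemin library, and KLF1, GFI1B, MYB, EPOR and STAT5A lie lower in every hemin library.

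Other parts of the protein quality machinery moved in smaller steps. All 8 subunits of the cytosolic chaperonin, which folds actin and tubulin, rose, from 0.58 for CCT8 to 1.34 for CCT4, which was at 331, 395 and 416 CPM in mock and 934, 1106 and 858 CPM in hemin. Of 37 proteasome subunits 30 rose and 4 fell (median 0.81). PSMD14, the deubiquitinase of the lid, was at 97.9, 103 and 108 CPM in mock and 369.7, 362 and 318 CPM in hemin, and the base subunit PSMD2 rose by 0.79. PSMB9, the inducible subunit of the immunoproteasome, fell by 1.39, and PSMD5, an assembly chaperone that leaves the mature particle, fell by 1.17.

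Among 18 chaperones and disulfide isomerases of the endoplasmic reticulum, 13 rose and 2 fell (median 0.76). HSPA5, the luminal HSP70, was at 852, 1043 and 1021 CPM in mock and 5891, 5248 and 4438 CPM in hemin. HERPUD1, which serves the degradation of misfolded proteins at this membrane, rose the most (86.3 ± 10.3 CPM to 602 ± 27.7 CPM, SD, n = 3 each), and DNAJC3, an inhibitor of the kinase PERK, rose by 1.88. PDIA4 fell by 0.47, a call that was lost without hemin replicate 3 (-0.38) and left 1 gene lower. Of 40 DNAJ co-chaperones 14 (35%) rose and 9 (22.5%) fell, against 25.7% and 27.8% of all genes (median 0.19). DNAJB1 and DNAJB4 (19.2 ± 1.81 CPM to 923 ± 342 CPM, SD, n = 3 each) rose the most and DNAJC9, a histone co-chaperone, was lowest (fell by 1.40). Of 20 autophagy and lysosome genes 12 rose and 1 fell (median 0.51). The cargo receptor SQSTM1, also on the NRF2 list, was at 171, 217 and 217 CPM in mock and 2169, 1451 and 1333 CPM in hemin, and the autophagosome proteins MAP1LC3B and GABARAPL1 rose 3.35-fold and 3.90-fold. The protease CTSB, the single fall, had a log2 fold change of -0.40 (adjusted p = 0.0281), which was not past the threshold without hemin replicate 3 (-0.30), mock replicate 2 (-0.34) or mock replicate 3 (-0.43) or with RLE or upper-quartile factors. Without mock replicate 1, 2 genes of this list were lower.

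BACH1 and NRF2, each paired with a small Maf protein, compete for elements whose core reads TGAC, 3 bases of any kind and GC. This core was found on either strand in 13.3% of all promoter windows and in 19.1% of the tested genes with a window. In the NRF2 and BACH1 list it stood in 5 of the 14 genes with a window (GCLM, KEAP1, ME1, PGD and TXNRD1). The windows of 3 genes whose levels rose are shown with the core, or its reverse complement, in capitals. Of the tested genes with the core 29.7% were higher, against 26.8% of those without it.

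ME1, chr6:83431170-83431199, minus strand: atctcctgccaTGACTCAGCgcttctcgca

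TXNRD1, chr12:104215669-104215698, plus strand: tacacgggctaTGACTTCGCtgttgtcacc

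GCLM, chr1:93909446-93909475, minus strand: ctacgatttctGCTTAGTCAttgtcttcca

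Of the 21 NRF2 and BACH1 targets 18 rose and 2 fell (median 2.07). After HMOX1 the largest rise was that of OSGIN1, an oxidative stress-induced growth inhibitor, at 7.05, 9.18 and 9.69 CPM in mock and 701, 577 and 604 CPM in hemin (log2 6.18, SE 0.40, adjusted p = 1.11e-08). The quinone reductase NQO1 was at 31.1, 34.2 and 32 CPM in mock and 612, 417 and 404 CPM in hemin, and the malic enzyme ME1, a source of NADPH, at 20.3, 19.1 and 22.3 and 308, 294 and 224 CPM. These 3 genes did not overlap between conditions, and ME1, the least changed of them, rose 13.4-fold. TXNRD1, thioredoxin reductase, rose 9.47-fold to 1923 ± 299.7 CPM (SD, n = 3).

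Genes of glutathione and thiol metabolism on the same list rose as well. SLC7A11, the cystine importer, was at 168, 162 and 149.98 CPM in mock and 989, 608 and 857 CPM in hemin. GCLM, the modifier of the enzyme that starts glutathione synthesis, rose by 2.37 and GSR, which reduces oxidized glutathione, by 2.13. Thioredoxin, TXN, rose by 1.43 and peroxiredoxin PRDX1 by 1.68. Sulfiredoxin SRXN1 rose by 2.07, with 84.2% of its words shared with other genes. PGD, of the pentose phosphate pathway, had 0.22 (SE 0.13, adjusted p = 0.18). The 2 falls were KEAP1, the adaptor that marks NRF2 for degradation, at 103, 123 and 124 CPM in mock and 77.8, 69.4 and 80.8 CPM in hemin, and SLC48A1, which carries heme out of lysosomes (fell by 0.74).

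Both subunits of ferritin, the iron store whose genes are known targets of NRF2 and BACH1, rose. The light chain FTL (ENSG00000087086; chr19:48965301-48966878) was at 1843, 2673 and 2578 CPM in mock and at 17619.9, 15392 and 12489.7 CPM in hemin, and the heavy chain FTH1 at 1033, 1524 and 1473 and 3787, 3231 and 3022 CPM. The libraries did not overlap for either chain, and the rise was 6.41-fold for FTL and 2.49-fold for FTH1. On the opposite strand, other genes overlap 62.4% of the exon bases of FTH1, and the strand setting of the counts is not given in the sources used here.

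Among the 8 tested genes of heme breakdown and transport, HMOX1 was the single rise and 5 fell. Without hemin replicate 1 the counts were 2 and 2, and without hemin replicate 2 or 3, 3 fell. The constitutive oxygenase HMOX2 was at 30.9, 32.7 and 35.9 CPM in mock and 18.1, 19.2 and 20.4 CPM in hemin (log2 -0.79, SE 0.21, adjusted p = 0.00473). Biliverdin reductase B, BLVRB, had 0.38 (adjusted p = 0.0666), which passed with the 6 libraries alone (0.42), DESeq2 (0.42), RLE (0.42) or upper-quartile factors (0.50) and without hemin replicate 1 (0.53). The heme and folate importer SLC46A1 fell by 0.90, which was not past the threshold without hemin replicate 1 (-0.81) or hemin replicate 2 (-0.73). Genes of the opposite strand overlap 61.5% of the exon bases of SLC46A1. Of the metallothioneins, which bind zinc and copper, 3 of 8 had enough counts and none of these passed the test. MT2A was at 9.88, 20.1 and 16.2 CPM in mock and 6.5, 21.3 and 13.6 CPM in hemin (log2 -0.16, SE 0.45), MT1X had -0.10 and MT1G 1.28 (SE 1.07), which was 0.33 without hemin replicate 2 and 0.60 without mock replicate 1. For both MT2A and MT1X hemin replicate 1 was the lowest library of the 6.

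Of the 9 heme biosynthesis enzymes and isoforms 6 fell and 1 rose (median -1.15). The housekeeping first enzyme ALAS1 was the rise, at 26.3, 29.7 and 29.6 CPM in mock and 52.1, 63.5 and 51.3 CPM in hemin (log2 0.96, SE 0.15, adjusted p = 6.33e-05). Its erythroid counterpart ALAS2 was at 80.3, 159.6 and 163 CPM in mock and 49.9, 58.6 and 43.5 CPM in hemin (log2 -1.41, SE 0.24, adjusted p = 0.000134). Neither form overlapped between conditions, and mock replicate 1 was the lowest mock library for ALAS2. Along the pathway, ALAD fell by 0.71, UROS by 1.15, CPOX by 1.86 and PPOX by 1.22. UROD had -0.16 (adjusted p = 0.464). Ferrochelatase, FECH, which inserts the iron, had -0.24 (SE 0.16, adjusted p = 0.235), and it was past the threshold at -0.46 without mock replicate 1.

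Of 14 genes of iron uptake, storage and export, the 2 ferritin chains (14.3%) rose and 6 (42.9%) fell (median -0.43). Over all genes 25.7% rose and 27.8% fell. SLC25A37, mitoferrin-1, which brings iron into erythroid mitochondria, was at 686, 946 and 1037 CPM in mock and 135, 184 and 182 CPM in hemin, 5.33-fold lower. The iron exporter ferroportin, SLC40A1, was at 63.2, 64.3 and 71.1 CPM in mock and 17.4, 17.3 and 24.7 CPM in hemin, the endosomal ferrireductase STEAP3 fell by 1.89 and TFR2 fell by 1.05. NCOA4, which carries ferritin to the lysosome, fell by 0.81. For the transferrin receptor TFRC the mock libraries were at 414, 658 and 844 CPM and the hemin libraries at 279, 423 and 364 CPM. They overlapped, and the change (log2 -0.85, SE 0.50, adjusted p = 0.162) was not past the threshold with the 12 libraries fitted, though it was with the 6 libraries alone (-0.81, adjusted p = 0.00527).

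Globin transcripts rose in part. Of the 5 α-like globins tested 3 rose (median 1.22). HBA2 was at 36.1, 72.1 and 81.4 CPM in mock and 199.99, 289 and 253 CPM in hemin (log2 1.97, SE 0.25, adjusted p = 8.81e-06). HBA1 and HBA2 share 78.5% and 78.3% of their 150-base words with other genes, and their sum went from 57.5, 108 and 118 CPM to 275, 395 and 326 CPM, 3.52-fold higher. The embryonic ζ-globin HBZ was at 42.4, 78.9 and 118 CPM in mock and 154, 203 and 199 CPM in hemin (log2 1.22, SE 0.33), with 34.3% of its words shared. Mock replicate 1 was the lowest library for HBA1, HBA2 and HBZ. HBQ1 (θ) had -0.04 (SE 0.17), and HBM, at under 1 CPM, had 0.90 (adjusted p = 0.143) and 1.60, past the threshold, without mock replicate 3.

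Of the 5 β-like globins 4 were past the threshold (median 0.84), though 2 were without hemin replicate 2 or without mock replicate 1. The fetal γ-globin HBG2 was at 15.0, 15.8 and 20.7 CPM in mock and 24.6, 35.2 and 40.4 CPM in hemin (log2 0.96, SE 0.19, adjusted p = 0.000489). HBG1, the other γ-globin, was at 116, 176 and 293 CPM in mock and 385, 374 and 288 CPM in hemin, which overlap. Its change of 0.84 (adjusted p = 0.0241) was not past the threshold without hemin replicate 1 (0.77), hemin replicate 2 (0.79), mock replicate 1 (0.51) or mock replicate 2 (0.76). HBG2 shares 50.5% of its words with other genes, and the sum of both went from 131, 192 and 313 CPM to 409.9, 409.5 and 329 CPM, 1.80-fold higher. The adult genes stayed low. HBB was at 0.0360, 0.143 and 0.365 CPM in mock and 0.214, 1.63 and 1.52 CPM in hemin, which overlap (log2 2.61, SE 0.72, adjusted p = 0.00605), and its log2 fold change was 3.64 without mock replicate 3. HBD had 0.74, lost without hemin replicate 2 (0.56) or mock replicate 1 (0.49). The embryonic ε-globin HBE1 had 0.42 (SE 0.37, adjusted p = 0.362), with 57.7% of its words shared.

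GATA1 binds elements with the letters AGATAA or TGATAA. They were found on either strand in 16.3% of all promoter windows and in 13.2% of the tested genes with a window. Among the erythroid transcription factor genes they stood in 6 of the 12 with a window (GFI1B, HEMGN, IKZF1, KLF1, LYL1 and TAL1). The windows of 4 genes that fell are shown, with the element or its reverse complement in capitals. Of the tested genes with the element 27.3% were lower, against 30.1% of those without it.

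KLF1, chr19:12887250-12887279, minus strand: ccttgctttgccTTATCAgaggctgcagcc

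TAL1, chr1:47232353-47232382, minus strand: cgcggcagtgccTTATCTctgcggcgcaca

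LYL1, chr19:13102868-13102897, minus strand: cagccaggctccTTATCAggcgcggccagg

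GFI1B, chr9:132978566-132978595, plus strand: cctggaaagtttTGATAAgcaaatacggct

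Of the 15 erythroid transcription factors 14 fell, against 27.8% of all genes, and none rose, with a median of -1.46 against -0.05 over all genes. This list was chosen with earlier results of these data known. KLF1 (ENSG00000105610; chr19:12884422-12887199), the activator of adult globin and membrane genes, was at 223, 301 and 329.6 CPM in mock and at 23.6, 22.2 and 26.2 CPM in hemin, 11.8-fold lower (log2 -3.57, SE 0.18, adjusted p = 2.36e-09). GFI1B, a repressor needed for erythroid and megakaryocytic maturation, was at 129, 145 and 149 CPM in mock and 9.01, 12 and 17.2 CPM in hemin, and MYB, which keeps progenitors dividing, at 302, 309 and 311 and 29.9, 57.2 and 48.9 CPM. In all 3 genes the highest hemin library was under the lowest mock library. No overlap was required of KLF1 by the choice of the 15 largest falls. NFE2, the erythroid partner of the small Maf proteins, fell 7.18-fold, and the hematopoietic nuclear protein HEMGN 10.3-fold.

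Members of the complex that loops the globin locus fell by less. TAL1 fell by 1.46, its cofactors LMO2 by 1.60 and LDB1 by 1.37, and the related factor LYL1 by 1.69. GATA1 itself (ENSG00000102145; chrX:48786554-48794311) was at 268, 296 and 325 CPM in mock and 130.2, 186 and 158 CPM in hemin (log2 -0.91, SE 0.14, adjusted p = 5.52e-05), and its cofactor ZFPM1 fell by 0.84. FOXO3, which guards red cells from oxidants, was the single gene of the list that did not pass, at 82.4, 96.5 and 97.9 CPM in mock and 108, 81.0 and 123 CPM in hemin.

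**Figure D3:**
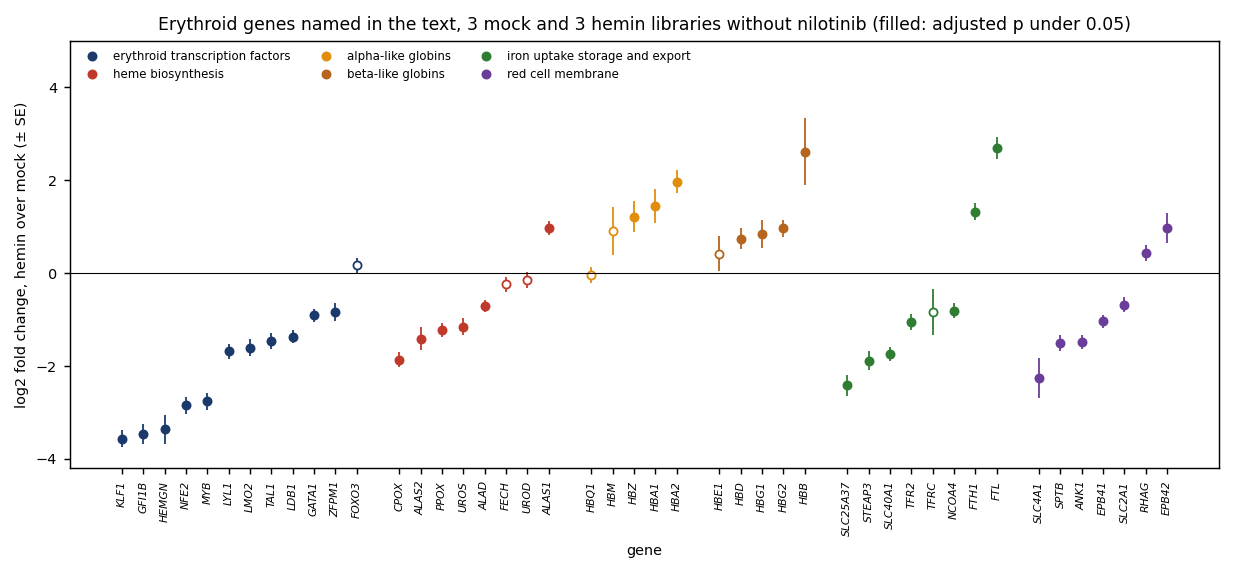
Log2 fold change of hemin over mock (y axis, bars of 1 SE) for the genes named in the text from 6 erythroid gene lists (x axis), filled where the adjusted p was under 0.05. Most transcription factors, heme synthesis genes and membrane genes shown lie under 0, and the globins with filled points lie above it.

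Of 20 red cell membrane genes 15 fell and 2 were higher (median -0.79). SLC4A1, the band 3 anion exchanger, was at 7.81, 27.4 and 45.8 CPM in mock and 6.80, 3.83 and 6.29 CPM in hemin (log2 -2.26, SE 0.42, adjusted p = 0.000321), with mock libraries that spread widely and mock replicate 1 the lowest. The skeleton proteins ankyrin (ANK1), β-spectrin (SPTB) and protein 4.1 (EPB41) fell by 1.49, 1.5 and 1.04. Both calls of higher genes depended on single libraries. EPB42, protein 4.2, had 0.97, but 0.51 without mock replicate 1 and 0.82 without hemin replicate 3, neither past the threshold. RHAG, the Rh-associated glycoprotein, had 0.43, and from 0.23 (without hemin replicate 2) to 0.47 (without mock replicate 3) in 5 leave-outs that ended the call, the others being mock replicate 1 (0.29), mock replicate 2 (0.39) and hemin replicate 3 (0.44). It was also lost with all genes of at least 1 count (0.36).

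Erythropoietin signalling and late erythroid genes counted 9 falls and 0 rises among 14 (median -0.61). The receptor EPOR was at 33.8, 41.5 and 49.6 CPM in mock and 9.01, 6.35 and 7.66 CPM in hemin, its kinase JAK2 at 61.0, 59.6 and 64.6 and 12.5, 18.3 and 19.5 CPM, and the factor they activate, STAT5A, at 446, 452 and 494 and 59.6, 109 and 75.6 CPM. These 3 fell by 2.44, 1.88 and 2.51, and no library overlapped. STAT5B fell by 0.57. The carbonic anhydrase CA1 fell by 1.78 with overlapping libraries, and CA2 had 0.46 (adjusted p = 0.182).

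Of 10 targets of STAT5, a factor that BCR-ABL1 activates, 6 (60%) fell and 3 (30%) rose, against 27.8% and 25.7% of all genes (median -0.70). BCL2L1, the survival factor of late erythroblasts, was at 179.9, 167 and 157 CPM in mock and 28.0, 41.2 and 34.9 CPM in hemin (log2 -2.27, SE 0.15, adjusted p = 1.41e-08), where genes of the opposite strand overlap 43.0% of its exon bases. The feedback inhibitors CISH and SOCS2 fell by 2.15 and 2.0. The cytokine OSM rose from 0.131 ± 0.0391 CPM to 0.627 ± 0.140 CPM (SD, n = 3 each). The kinase PIM3 rose by 2.18, and by 1.49 without hemin replicate 1, its highest library. PIM1 had -0.60 (adjusted p = 0.0387), a call lost without hemin replicate 1 (-0.41), hemin replicate 3 (-0.63), mock replicate 2 (-0.62) or mock replicate 3 (-0.60) and with RLE (-0.56) or upper-quartile factors (-0.48). In the BCL2 family 5 of 14 (35.7%) were higher and 4 (28.6%) lower, against 25.7% and 27.8% of all genes (median 0.09). Without mock replicate 3, 3 were higher, and without hemin replicate 2, 2 were lower. The BH3-only proteins PMAIP1 (30.2 ± 1.48 CPM to 129 ± 15.9 CPM) and HRK (0.177 ± 0.0666 CPM to 0.928 ± 0.300 CPM, SD, n = 3 each) rose. MCL1 had 0.46, and 0.40, not past the threshold, without mock replicate 3.

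All 10 erythroid markers used to check the cell line were detected in every library. The lowest was ε-globin, whose exons other genes overlap, at 1.22, 0.549 and 1.83 CPM in mock. The summed level of the 10 markers was 1386 to 2323 CPM in mock and 1156 to 1386 CPM in hemin. Of these markers 3 (30%) were higher and 4 (40%) lower, against 25.7% and 27.8% of all genes. Of the 8 tested megakaryocyte genes 1 (12.5%) was higher, at least 2-fold, and 4 (50%) lower. Their sum was 370.2 to 408 CPM in mock and 149 to 174 CPM in hemin. Among the falls, NBEAL2, a protein of platelet granules, fell by 1.73. GP1BA, the platelet adhesion receptor, fell by 3.25, and TUBB1 fell by 1.90. On the opposite strand, ATP5F1E overlaps 34.0% of the exon bases of TUBB1. FLI1 and GP1BB had 0 counts in the 6 libraries without nilotinib, and PF4, PPBP and GP9 had too few to test.

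Among 12 myeloid genes, which summed to 322 to 363 CPM in mock and 335 to 437 CPM in hemin, 2 (16.7%) rose and 6 (50%) fell. The shares of all genes were 25.7% and 27.8%. CD14, the lipopolysaccharide co-receptor, was at 0.270, 0.739 and 0.481 CPM in mock and 5.21, 11.3 and 11.7 CPM in hemin, and CSF1R at 0.180, 0.143 and 0.288 and 0.766, 2.17 and 2.16 CPM. Both rose from under 1 CPM with no overlap. CD33 fell by 1.44 and the granule protease PRTN3 by 2.0. CEBPB had 0.73 (adjusted p = 0.0809) and passed with the 6 libraries alone (0.77, adjusted p = 0.00143). MPO, ELANE, S100A8 and S100A9 had too few counts to test. Of 9 lymphoid, stromal, epithelial and endothelial genes 4 (44.4%) were higher and 1 (11.1%) lower. Their sums were 95.4 to 114 CPM in mock and 96.7 to 135 CPM in hemin. Without hemin replicate 2 or mock replicate 3, 1 was higher, and without mock replicate 2, 2 were. COL1A1 rose from 8.69 ± 1.85 CPM to 22.4 ± 2.27 CPM (SD, n = 3 each), PECAM1 fell by 0.67, and EPCAM had -0.29 (adjusted p = 0.135) and -0.49, past the threshold, without hemin replicate 2. CD79A, at under 1 CPM, had 1.70, a call lost without hemin replicate 2 (1.46), mock replicate 1 (1.24) or mock replicate 3 (1.60). MS4A1 and CDH5 had 0 counts in the 6 libraries without nilotinib. The part of these markers in the other results was not tested.

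Immediate-early and ERK feedback genes, the fast readout of growth factor and stress kinases, rose in 10 of 17 cases and fell in 2 (median 0.96). JUN was at 75.3, 66.1 and 59.4 CPM in mock and 590.3, 917 and 754 CPM in hemin, and FOS, its partner in AP-1, at 1.13, 1.22 and 1.17 and 38.5, 77.0 and 49.4 CPM. The hemin libraries were above the mock libraries for both, and the rise was 11.3-fold for JUN and 46.7-fold for FOS. IER3 and the ERK phosphatase DUSP4 rose 5.06-fold and 9.53-fold, EGR1 had 0.41 (adjusted p = 0.213), and SPRY2, an inhibitor of receptor signalling, fell by 1.07. The other fall, that of the ETS factor ETV4 (log2 -0.47, adjusted p = 0.0483), was not past the threshold without hemin replicate 1 or 3 or mock replicate 1 or 2 (-0.31, -0.35, -0.41 and -0.53), with the 6 libraries alone, or with DESeq2, RLE or upper-quartile factors.

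Of 20 genes that ATF4 drives when translation initiation is slowed 7 (35%) rose, all at least 2-fold, and 1 (5%) fell (median 0.16). Over all genes these shares were 25.7% and 27.8%. The sum of the 20 went from 5839 to 10004 CPM. ATF3, which stress kinases also induce, was at 32.5, 41.6 and 33.3 CPM in mock and 389.99, 387 and 398 CPM in hemin, and PPP1R15A, which directs the dephosphorylation of eIF2α, at 208, 214 and 215 and 1276, 1596 and 1475 CPM. SLC3A2, the heavy chain of the cystine importer, rose by 1.91, SESN2 by 1.61 and DDIT3 by 1.19. ATF4 itself had 0.27 (adjusted p = 0.43) and ATF5 -0.62 (adjusted p = 0.236, past the threshold with the 6 libraries alone at -0.58, adjusted p = 0.00843), and PSPH, of serine synthesis, fell by 0.58.

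Of 24 DNA replication genes 18 fell and 2 rose (median -0.64). MCM4 of the replicative helicase was at 385, 395 and 374 CPM in mock and 112, 154 and 111 CPM in hemin, and the sliding clamp PCNA at 123, 127 and 115 and 46.6, 43.5 and 38.4 CPM. RRM2, of deoxynucleotide synthesis, fell by 1.58. The 2 rises were MCM5, another helicase subunit (203, 206 and 191 CPM in mock, 622, 375 and 374 CPM in hemin), and its loader CDC6 (rose by 1.18), while the second loader CDT1 fell by 0.59. MCM7 had -0.31 (adjusted p = 0.14) and -0.48, past the threshold, without hemin replicate 2.

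CDKN1A, the p21 inhibitor of cyclin-dependent kinases, was at 32.8, 27.6 and 22.8 CPM in mock and at 333, 365 and 371 CPM in hemin, 12.8-fold higher (log2 3.68, SE 0.20, adjusted p = 2.8e-09). Of 17 inhibitors and G1 cyclins 9 were higher and 1 lower (median 0.42), and 5 were higher without mock replicate 3. The single fall was that of CDK6, a kinase of G1 (log2 -0.35, adjusted p = 0.0244), which was lost without hemin replicate 3 (-0.28) or mock replicate 2 (-0.35) and with RLE or upper-quartile factors. GADD45B rose from 1.28 ± 0.318 CPM to 65.6 ± 42.1 CPM (SD, n = 3 each), by 5.69 and, without hemin replicate 2, by 5.05. BTG1 had -0.36 (adjusted p = 0.155). CCND3 had 0.47, with the call lost without hemin replicate 2 (0.30) or any mock library (0.39 to 0.47). CDKN2A and CDKN2B had 0 counts in the 6 libraries without nilotinib. Of 22 mitotic genes 8 (36.4%) fell and 2 (9.1%) were higher, against 27.8% and 25.7% of all genes (median -0.23). The kinesin KIF20A and cyclin CCNB1 fell by 0.99 and 0.68, MKI67 fell by 0.70, and TOP2A had -0.15 (adjusted p = 0.412). The mitotic kinesin CENPE, at 0.38, was past the threshold with all libraries but not in 5 of 6 leave-outs (0.33 without hemin replicate 1, 0.38 without hemin replicate 3, 0.38, 0.33 and 0.30 without mock replicates 1, 2 and 3) or with all genes of at least 1 count, and no mitotic gene was higher in 4 of them.

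Of 22 genes of ribosome biogenesis and RNA polymerase I, 15 fell and 3 rose (median -0.64). The largest polymerase subunit POLR1A was at 99.96, 116 and 123 CPM in mock and 31.8, 23.2 and 29.3 CPM in hemin, and UBTF, which opens ribosomal DNA, at 129, 171 and 170.2 and 57.8, 55.9 and 58.6 CPM. RRS1 fell by 2.70 and nucleolin, NCL, by 1.25. NOP58, a core protein of box C/D particles, rose by 1.34, the initiation factor RRN3 by 1.05, and NOP2, which shares 40.1% of its words with other genes, by 1.75. NPM1 had -0.07 (adjusted p = 0.72). Of 85 cytosolic ribosomal protein genes 55 were higher and 1 lower (median 0.44). That count depended on single libraries, with 21 higher without mock replicate 1, 33 without mock replicate 2, and 32 without mock replicate 3 or hemin replicate 2. RPS26 rose by 0.86 and RPL3L, the muscle form, from 0.558 ± 0.102 CPM to 6.93 ± 3.34 CPM (SD, n = 3 each). RPLP0 had 0.37 (adjusted p = 0.0869) and 0.49, past the threshold, without hemin replicate 1. RPL7L1, a biogenesis factor named for its likeness to RPL7, fell by 1.11.

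Of the 13 mRNAs of the mitochondrial genome 12 fell (median -1.99), and their summed level went from 57154 to 18067 CPM on average. MT-ATP6, of ATP synthase, was at 3432, 4409 and 3889 CPM in mock and 777, 421 and 837 CPM in hemin (log2 -2.53, SE 0.28, adjusted p = 1.91e-06), and MT-CO1, of cytochrome oxidase, at 9864, 11787 and 10792 and 4776, 1924 and 4025 CPM. Hemin replicate 2 was the lowest library for both and the conditions did not overlap. MT-ND1 had -0.46 (adjusted p = 0.101), and it passed without hemin replicate 1 (-0.69) or mock replicate 1 (-0.66).

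Of 84 nuclear genes of the respiratory chain 40 were higher and 8 lower (median 0.46), with 24 higher without mock replicate 1, 25 without hemin replicate 2 and 3 lower without hemin replicate 3. UQCRFS1, the Rieske protein, fell by 1.35 and NDUFV3 by 1.13. ATP5F1B had 0.18 (adjusted p = 0.413), COX6B2 1.05 (adjusted p = 0.0882, past the threshold with the 6 libraries alone at 1.09, adjusted p = 0.00476) and COX7A1, at under 1 CPM, -1.42 (adjusted p = 0.0668), the last past the threshold without hemin replicate 2 (-2.74) or mock replicate 1 (-1.72). Of 78 mitochondrial ribosomal proteins 18 (23.1%) were higher and 28 (35.9%) lower, against 25.7% and 27.8% of all genes (median -0.16). Without mock replicate 1, 11 were higher. MRPL18 was at 61.2, 64.6 and 62.8 CPM in mock and 451, 713 and 594 CPM in hemin, 9.32-fold higher, and MRPS17 fell by 2.60. Of 19 cytosolic aminoacyl-tRNA synthetases none was higher and 2 were lower (median 0.02), and without hemin replicate 2 these were 1 and 4. FARSA fell by 1.06, AARS had -0.38 (adjusted p = 0.305) and YARS 0.52 (adjusted p = 0.205, past the threshold with the 6 libraries alone at 0.56, adjusted p = 0.00324).

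Cholesterol synthesis, which SREBP2 controls, fell in 15 of 20 genes with none higher (median -0.92). Mevalonate kinase, MVK, was at 37.7, 37.3 and 39.7 CPM in mock and 4.5, 7.75 and 6.90 CPM in hemin. It fell 5.99-fold with no overlap. Squalene epoxidase, SQLE, fell by 1.57 and SREBF2, the gene of SREBP2, by 0.86. HMGCS1 had -0.18 (adjusted p = 0.321).

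Of 19 glycolysis genes 6 (31.6%) were higher and 5 (26.3%) lower, near the 25.7% and 27.8% of all genes (median 0.12), and 2 were higher without hemin replicate 2 or mock replicate 1. Of the glucose transporters, SLC2A3 rose by 0.97 and SLC2A1 fell by 0.68. Hexokinase 2, HK2, fell by 0.68, and ENO1 had 0.12 (adjusted p = 0.689). In the pentose phosphate pathway 2 of 7 (28.6%) were higher and 1 (14.3%) lower, against 25.7% and 27.8% of all genes (median 0.04). Without hemin replicate 2 or any single mock library, 1 was higher. RPE, the ribulose phosphate epimerase, fell by 1.25 and TKT had 0.04 (adjusted p = 0.871). GAPDH and ACTB, widely used as reference genes, both differed. GAPDH was at 1107, 1328 and 1182 CPM in mock and 1759, 2504 and 1539.9 CPM in hemin, a change of 0.68 that was lost without hemin replicate 2 (0.46) or mock replicate 1 (0.56). ACTB was at 1826, 2213 and 2056 CPM in mock and 1139, 1688 and 1206 CPM in hemin, a change of -0.60 lost without hemin replicate 1 (-0.48) or hemin replicate 3 (-0.51). Of the 10 reference genes 5 were higher, 1 of them at least 2-fold, and 2 lower (median 0.41), with HPRT1 (rose by 0.93) among the former, and 3 were higher without hemin replicate 2 or mock replicate 1.

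The inflammasome and the ZAK-p38 pathway, on which the study centers, had 3 of 18 genes (16.7%) higher and 8 (44.4%) lower (median -0.47). Over all genes these shares were 25.7% and 27.8%. The counts were 1 and 5 without hemin replicate 3, and 1 gene was higher without any single mock library. NLRP1, the sensor, was at 156, 136 and 140.4 CPM in mock and 284, 168 and 236 CPM in hemin with no overlap, a change of 0.67 (SE 0.25, adjusted p = 0.0318). The call was lost without hemin replicate 1 (0.50) or 3 (0.66) or without mock replicate 1 (0.66), 2 (0.62) or 3 (0.61). MAPK14, which encodes p38α, was at 86.1, 85.6 and 87.7 CPM in mock and 38.4, 28.9 and 32.3 CPM in hemin, 2.60-fold lower (adjusted p = 3.49e-07), and MAP3K20, which encodes ZAK, at 56.9, 56.3 and 61.5 and 49.7, 50.3 and 49.5 CPM, not past the threshold (log2 -0.22, adjusted p = 0.133). CARD8 fell by 0.56. The adaptor PYCARD had -0.98, not past the threshold without hemin replicate 1 (-0.82) or 3 (-0.83), and other genes on the opposite strand overlap 59.7% of its exon bases. NLRP3 had 5 counts in the mock libraries together and 87 in the hemin libraries, a ratio of 25.2 (95% counting interval 10.4 to 79.4). CASP4 had -1.65 (adjusted p = 0.0588), and CASP1 had at most 1 count in any of the 6 libraries without nilotinib.

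Of 19 interferon-stimulated and MHC class I genes 3 (15.8%) were higher and 7 (36.8%) lower, against 25.7% and 27.8% of all genes. Their median was -0.04, and 0.07 with upper-quartile factors, and 1 gene was higher without mock replicate 1. HLA-B rose from 1.17 ± 0.454 CPM to 5.28 ± 0.526 CPM, IFIT3 went from 1.89 ± 0.399 CPM to 0.379 ± 0.0219 CPM (SD, n = 3 each), and B2M had 0.22 (adjusted p = 0.193). Of 55 replication-dependent histone genes 19 (34.5%) rose and 15 (27.3%) fell, against 25.7% and 27.8% of all genes (median 0.22). HIST1H4H fell by 1.27, HIST2H2AC rose from 0.122 ± 0.0238 CPM to 2.15 ± 0.161 CPM (SD, n = 3 each), and HIST1H1C had 0.21 (adjusted p = 0.353). HIST2H4B had -2.88, and -3.61 without hemin replicate 1, with 97.0% of its words shared with other genes. HIST1H3G had 1 count in mock and 61 in hemin, a ratio of 88.2 (95% counting interval 15.2 to 3541).

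Of 459 zinc finger genes named ZNF 115 (25.1%) were higher and 156 (34.0%) lower, against 25.7% and 27.8% of all genes (median -0.10). ZNF439 rose the most, from 0.0746 to 4.86 CPM on average (log2 5.98, SE 0.55), ZNF488 fell by 3.16 and ZNF609 fell by 0.60. Of 22 small nucleolar RNA host genes 6 (27.3%) rose, near the 25.7% of all genes, and 1 (4.5%) fell, against 27.8% (median 0.30). Without hemin replicate 1 or 2, 2 were lower. SNHG9 rose by 1.57, SNHG16 fell by 0.53, GAS5 had -0.15 (adjusted p = 0.501) and SNHG27, at under 1 CPM, -0.66 (SE 0.78).

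In cells that also received nilotinib, the same comparison of 3 hemin with 3 mock libraries shares none of these libraries, and it called 1208 genes (5.8%). The hemin libraries with nilotinib spread more than those without it, with replicate correlations of log2 CPM of 0.969 to 0.986. HSPA1A was at 147, 83.4 and 76.2 CPM in mock with nilotinib and at 332, 2384 and 6788 CPM in hemin with nilotinib, a mean of 3168 ± 3299 CPM (SD, n = 3) in the latter, with replicate 1 the lowest. The count of calls with nilotinib rested on single libraries, with 2793 without hemin nilotinib replicate 1, 286 without replicate 2 and 834 without replicate 3, so a gene that was not called with nilotinib is not shown to be unchanged there. The difference of the hemin effect without and with nilotinib was past the threshold for 6271 genes (30.1%), 2713 of them with the effect without nilotinib above that with it and 3558 below, and for 5361 to 6775 genes with a hemin nilotinib library left out. Of the 11156 genes called without nilotinib, 5840 (52.3%) had effects that differed, and in 5760 of these the effect without nilotinib was the larger in size. These 11156 genes were chosen on the effect without nilotinib, which favors a larger effect there.

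Of the 20 heat-shock genes 19 also rose with nilotinib, with a median of 1.56 against 3.58, and 19 effects differed by the test of the difference, as 19 did with any of the hemin nilotinib libraries left out. HSPA1A had 8.26 without and 4.95 with nilotinib, a difference of 3.30 (SE 0.86, adjusted p = 0.00886). HSPB1 had 5.67 and 1.73. Of the 21 NRF2 and BACH1 targets 15 rose with nilotinib, with medians of 2.07 without and 1.26 with it, and 8 effects differed. NQO1 had 3.88 and 4.11 and FTL 2.68 and 2.10, differences of -0.22 (adjusted p = 0.623) and 0.58 (adjusted p = 0.178) that were not past the threshold, whereas ME1 had 3.74 and 1.26 (adjusted p = 2.56e-05).

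Of the 15 erythroid transcription factors none passed the test with nilotinib, with a median of -0.22 against -1.46, and 12 effects differed. KLF1 had -3.57 without and -0.22 with nilotinib, a difference of -3.35 (SE 0.24, adjusted p = 5.55e-07). For heme biosynthesis the medians were -1.15 and -0.04, with 6 of 9 effects differing, and for the mitochondrial mRNAs -1.99 and 0.17, with 12 of 13. For cholesterol synthesis they were -0.92 and 0.14, with 14 of 20. CDKN1A had 3.68 and 0.37 (adjusted p of the difference 1.19e-06). Of the metallothioneins, MT2A was at -0.16 without and 1.96 with nilotinib (past the threshold) and MT1X at -0.10 and 4.78, and both effects differed (adjusted p = 0.0193 and 0.00966). Without hemin nilotinib replicate 2 neither passed with nilotinib, and the difference for MT2A was not past the threshold (-1.42, adjusted p = 0.0654). Of the 10 globin genes, the effect on HBA2 was the single one that differed past the threshold (1.97 and 0.58, adjusted p = 0.00673), and another one did without hemin nilotinib replicate 1 or hemin replicate 1.

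**Figure D4:**
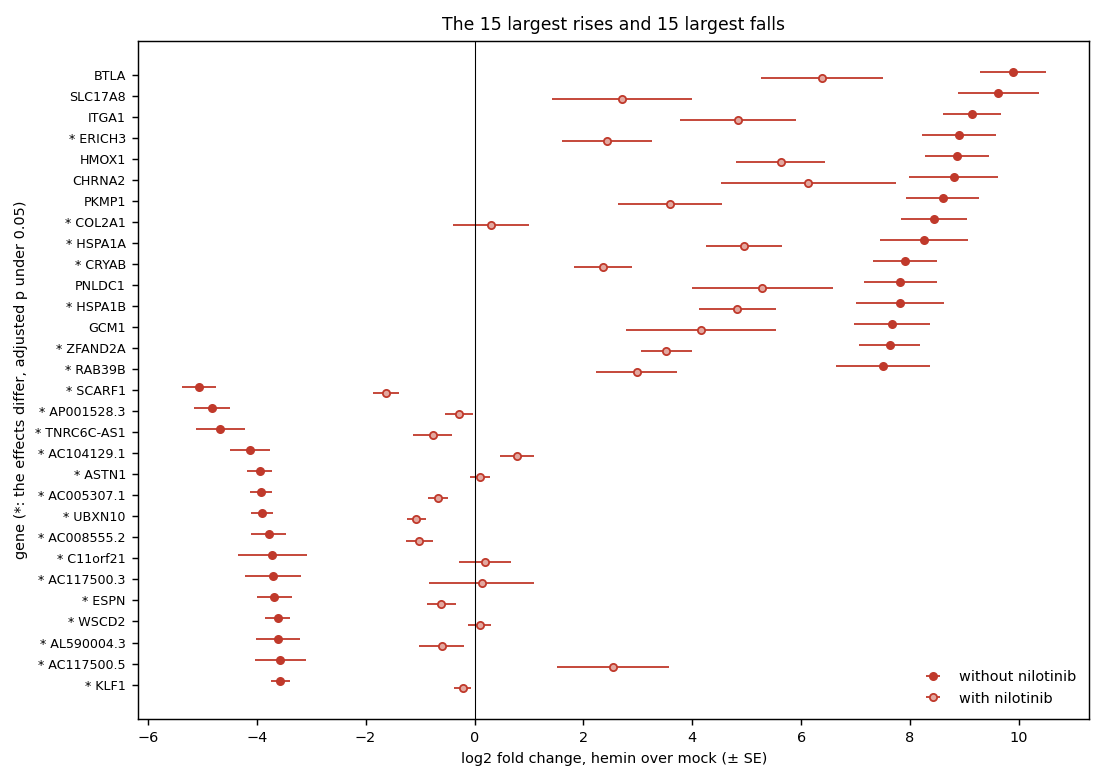
Log2 fold change of hemin over mock (x axis, bars of 1 SE) without nilotinib (filled) and with it (pale) for the 15 largest rises and 15 largest falls (y axis), which were chosen on the values without nilotinib. Asterisks mark the 7 rises and 15 falls whose effects differed, and 11 of the 15 rises but 4 of the 15 falls also passed the test with nilotinib (5 to 13 of the rises and 2 to 5 of the falls in the same direction with a hemin nilotinib library left out).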

How the data were processed

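RNA of 12 K562 libraries was sequenced on an Illumina platform with paired reads of 150 bases. The deposited table holds raw read counts per gene, made by the authors and not normalized, for 58735 genes of GRCh38, all matched to GENCODE 29. The submitters' processing notes name GRCh38.p12 and DESeq2. The aligner, the counter and the strand setting are not given in the sources used here. Tables of FPKM were not used.

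Groups came from the sample titles. Genes were kept by filterByExpr (minimum count 10, total 15), scaled by TMM and fitted with edgeR 4.0.16 in R 4.3.3, with 1 mean for each of the 4 conditions over the 12 libraries. The hemin effect without nilotinib was tested by the quasi-likelihood F test with Benjamini-Hochberg adjustment (threshold 0.05), and so was its difference from the effect with nilotinib. An SE is the size of the log2 fold change over the square root of F. An exact permutation test could not go below p = 0.1 with 3 against 3. On simulated counts for this contrast over 20821 genes, 52% of 100 genes changed by 1 on the log2 scale and 97% of 100 changed by 2 were recovered, with 9 false calls. The simulated counts had the same spread for all genes and few changed genes, unlike these data, so these rates may not hold for them. The notes call the replicates biological and say no more of their origin, so p-values measure the spread between these samples.

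Named genes were the 15 largest rises and 15 largest falls (adjusted p under 0.05, mean of at least 100 counts, no overlap) and, in 42 lists, the largest rise, the largest fall, the most abundant member and others whose role makes the list readable. Some genes of the lists, the largest rise of a few lists among them, are not reported here by name. The comparison, the lists and their members were chosen with earlier results of these data known. Shared sequence is the percent of a gene's 150-base words found in other genes of GENCODE 29. Alternatives were DESeq2 1.42.0, other scaling factors, other filters, the 6 libraries alone, a replicate block, a 2-fold requirement and leaving out each library. Leaving out each hemin nilotinib library was added after the data were seen.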

Additional observations from a re-analysis of the deposited data

Results flagged for a closer look

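The effect of hemin without nilotinib differed from that with nilotinib, by edgeR's test of the difference itself, for 6271 genes. Among the 15 largest rises these were COL2A1 (a difference of 8.13 on the log2 scale, without minus with nilotinib), ERICH3 (6.46), CRYAB (5.55), RAB39B (4.53), ZFAND2A (4.10), HSPA1A (3.30) and HSPA1B (2.99). COL2A1 and ERICH3 had 3 counts or fewer in every mock library without nilotinib, so the size of their difference depends on few counts.

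All 15 of the largest falls differed as well. The erythroid transcription factor KLF1 had a difference of -3.35, the scavenger receptor SCARF1 -3.44, ASTN1 -4.04, WSCD2 -3.72, C11orf21 -3.91, ESPN -3.07 and UBXN10 -2.83. Among the genes with clone names and antisense genes, the difference was -6.11 for AC117500.5, -4.90 for AC104129.1, -4.54 for AP001528.3, -3.90 for TNRC6C-AS1, -3.83 for AC117500.3, -3.25 for AC005307.1, -3.01 for AL590004.3 and -2.76 for AC008555.2. With nilotinib, AC117500.5 averaged 0.0169 CPM in mock and 0.122 CPM in hemin, and AC117500.3 averaged 0.0531 and 0.0559 CPM. The size of the difference for both therefore depends on few counts. Leaving out hemin nilotinib replicate 3, AC117500.3 no longer differed by the test (-1.99, adjusted p = 0.537), whereas the differences of PKMP1 and SLC17A8 passed, as that of PKMP1 did without hemin nilotinib replicate 1. The 30 largest changes were chosen on the values without nilotinib.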

How the results depend on the processing

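The 11156 genes past the threshold became 11290 with DESeq2 (10854 of them shared), 12521 with all genes of at least 1 count, 9004 with at least 10 counts in every library, 11076 and 11078 with RLE and upper-quartile factors, 11560 with the 6 libraries alone and 9925 to 10677 with a library left out. A 2-fold change in addition left 6474. Factors mainly moved the split, with 5360 higher and 5796 lower becoming 6160 and 4918 with upper-quartile factors, and 2713 and 3558 of the 6271 differences from nilotinib becoming 3380 and 2914 of 6294. The median of all genes was between -0.12 and 0.07. Same-numbered libraries of the 2 conditions had correlations of their deviations of 0.0989, 0.104 and 0.0849, so the numbers were not taken to pair them. With a replicate block, 11611 genes passed with 12 libraries, 11979 with 6, and 6845 for the difference from nilotinib.

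Of 244 genes followed through 14 alternatives, 196 kept their direction and side of the threshold in all, and no gene past the threshold reversed. Of 42 list medians 35 kept their sign. The reversals were of changes that had not passed, near 0 except for SNHG27 (-0.66). HBQ1 was at 0.0045 with DESeq2 and with RLE factors, 0.084 with upper-quartile factors and 0.0015 with the 6 libraries alone, and upper-quartile factors gave MT1X 0.020 and NPM1 0.047. TKT was at -0.026 with all genes of at least 1 count. With a library left out the ranges were -0.078 to 0.33 for ATP5F1B, -0.069 to 0.27 for ENO1, -0.36 to 0.068 for GAS5, -0.24 to 0.17 for HBQ1, -0.49 to 0.42 for MT1X, -0.60 to 0.19 for MT2A, -0.24 to 0.023 for NPM1, -1.42 to 0.0013 for SNHG27 and -0.10 to 0.14 for TKT. Some genes not past the threshold passed under an alternative. With the 6 libraries alone these were TFRC, ATF5, YARS, CEBPB, COX6B2 and BLVRB, with all genes of at least 1 count TFRC, ATF5, YARS, CEBPB, COX6B2, AARS, BTG1, CASP4, HBM, MCM7 and MT-ND1, with upper-quartile factors B2M, PGD, RPLP0 and BLVRB, and with a replicate block on the 6 libraries EGR1 (0.53), MT1G (1.26), CALR, BTG1, MT-ND1 and the 6 genes named first. The cause was not tested, except that upper-quartile factors shift every gene upward. Depth limits genes near 0 counts in a condition, 412 with 3 or fewer in every mock library and 400 in every hemin library.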

Other observations

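Genes that were nearly silent in mock were more often called higher than genes of high level. Of 997 genes under 0.1 CPM in mock, 65.5% were higher and 0.80% lower, whereas of 2140 genes over 100 CPM 25.2% were higher and 34.6% lower. A gene at the lower limit of detection can hardly be called lower, and the filter kept such genes where they were high in another condition. Of the 412 genes with 3 counts or fewer in every mock library, 319 were higher, and 67 had no mock count at all.

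Several genes of low level in mock lie just after a gene of the same strand that rose. RN7SL472P, a pseudogene of the signal recognition particle RNA, starts 3266 bases after the end of HSP90AA1. It had 0 counts in mock and 4.32 ± 0.731 CPM in hemin (SD, n = 3), at least 70.7-fold higher against a mean floor of 3 counts per library. ARMCX4 starts 4154 bases after HNRNPH2 and went from 0 counts to 4.19 ± 0.719 CPM (SD, n = 3), at least 68.6-fold higher against the same floor. PNLDC1, among the 15 largest rises, starts 1813 bases after MRPL18, NECAB2 2300 bases after OSGIN1, and TBR1 4377 bases after the proteasome gene PSMD14.

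Of 766 genes under 1 CPM in mock and at least 8-fold higher, 24.5% started within 10 kb after another tested gene's end. Within 50 kb it was 55.6%. That other gene was on the same strand, averaged at least 1 CPM in mock or hemin, and was not required to rise. For the 1273 higher by less than 8-fold these shares were 22.6% and 48.2%. For the 4543 genes under 1 CPM in mock that were not higher these were 13% and 34.5%, and for all genes tested 18.4% and 43.0%. This comparison was chosen after the data were seen and has no test. Whether reads of these genes come from their own promoters was not tested.

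The 14208 protein-coding genes were called higher in 28.5% and lower in 29.9% of cases. For lincRNAs these were 19.9% and 23.8%, for antisense genes 18.4% and 22.7%, and for processed pseudogenes, which resemble their parent genes, 25.9% and 16.1%.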
